A study of Mus musculus with 4 samples.

Results

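The 80 genes described here encode the protein subunits of the cytosolic ribosome and were chosen by name. They are all symbols made of Rpl or Rps, a number and at most one of the letters a, l, x and y, together with Rpsa, Rplp0, Rplp1 and Rplp2, among 31053 listed genes. Of these, 49 belong to the large and 31 to the small subunit, and all 80 are annotated as protein-coding on mm10. They were measured by droplet single-cell RNA sequencing of the stromal vascular fraction of mouse inguinal white fat, the cells other than adipocytes that a digested fat pad releases. The control mice were C57BL/6, and 7 of them were pooled. The other pool came from 8 mice labelled iAdFASNKO, which is known to stand for inducible knockout of Fasn, encoding fatty acid synthase, in adipocytes, cells that the fraction leaves out. The sources used here do not give age, sex, the strain of the iAdFASNKO mice, the driver line or the inducing treatment. Magnetic sorting separated each pool into cells positive for lineage markers (Lin+) and the rest (Lin-), which gave 4 libraries, 1 for each genotype and fraction. With 1 library per group no test between genotypes is possible, and every interval below covers counting error only.

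A ribosome is built from a large and a small subunit, each an assembly of ribosomal RNA and a fixed set of proteins, so nearly every one of these genes is used in every cell. Their messages begin with a run of pyrimidines, the 5′ terminal oligopyrimidine or TOP motif, through which the kinase complex mTORC1 and the protein LARP1 set how much of them is translated. Resting lymphocytes are small cells with little other messenger RNA, and ribosomal protein transcripts are among the most abundant messages in them.

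The libraries held 3661 to 6133 barcodes and 21622291 to 33016494 unique molecular identifiers (UMIs, each 1 captured transcript). Of 18336 barcodes 14698 were retained, and 12279 of them were placed in a class by marker genes outside the ribosomal list. The sort was meant to part immune from other cells, per the labels, but progenitor-like cells made up 1649 of the 2431 gated cells in Lin+ control and 1410 of 3430 in Lin+ iAdFASNKO. The median retained cell had 5349 UMIs in the Lin+ control library, 3303 in Lin+ iAdFASNKO, 9134 in Lin- control and 4152 in Lin- iAdFASNKO. Each pair of libraries shared 109 to 170 barcode sequences, also across genotypes. Haemoglobin transcripts took 0.185% to 1.71% of the UMIs of every class in Lin+ and at most 0.0145% in Lin-, and the part of such free RNA in the Lin+ values was not tested. The Lin- iAdFASNKO library stood apart in the mix of ribosomal protein genes. Among progenitors, 16 of 78 members lay outside the range of the other libraries by the fold of the size rule given below, against 0 or 1 in each other library, taken as shares within ribosomal protein UMIs. Among T-cell-like cells these counts were 15 of 72, and 0 to 2. Of 8173 other genes in progenitor-like cells, as CPM, 7.44% lay outside in Lin- iAdFASNKO and 15.7% in Lin+ iAdFASNKO. Of 63 other genes in T-cell-like cells these shares were 20.6% and 22.2%. By this count, on a scale unlike that of the members, the library did not stand apart in its other genes. Its median absolute log2 distance for them was the largest in T-cell-like cells, at 0.445 against 0.232 to 0.332, but not in progenitor-like cells.

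The start sites of a few members that the results turn on are shown first, with 25 bases before and 25 from the start site, read 5′ to 3′ from RefSeq promoter entries on GRCm38.p6. Capitals mark the longest unbroken run of C and T in each window, or the first of 2 equal ones in Rps27l. They cover chr2:32961687-32961736 for Rpl12, chr2:39005107-39005156 for Rpl35, chr3:90213624-90213673 for Rps27, chr4:86857343-86857392 for Rps6, chr7:45128721-45128770 for Rpl13a, chr9:66946061-66946110 for Rps27l and chr16:10170203-10170252 for Rpl39l. Rpl12, Rps27l and Rpl39l are read on the plus strand and the others on the minus strand.
Rpl12: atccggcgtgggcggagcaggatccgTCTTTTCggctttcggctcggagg
Rpl35: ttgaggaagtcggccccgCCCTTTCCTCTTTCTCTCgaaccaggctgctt
Rps27: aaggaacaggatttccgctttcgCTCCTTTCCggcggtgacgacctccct
Rps6: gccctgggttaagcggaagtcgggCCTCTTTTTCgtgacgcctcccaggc
Rpl13a: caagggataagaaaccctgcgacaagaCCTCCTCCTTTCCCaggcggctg
Rps27l: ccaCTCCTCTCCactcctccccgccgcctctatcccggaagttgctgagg
Rpl39l: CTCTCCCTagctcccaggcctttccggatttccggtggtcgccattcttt

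In Rpl35, Rps27, Rps6, Rpl12 and Rpl13a the run lies at the start site or within a few bases of it, while in Rpl39l it lies at the upstream end of the window. Both runs of Rps27l end before the start site. RefSeq promoter entries were found for 60 of the 80 members. A run of 8 or more pyrimidines stood in this window in 48.3% of them and in 18.9% of 17492 protein-coding promoters. The letters CGGAAG, the core bound by ETS factors, were found on either strand of the 300-base promoter in 68.3% of members and 21.5% of all promoters. TATAAA was found in 8.33% and 13.3%. These matches describe the letters only.

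Lymphocytes carried the largest share of ribosomal protein transcripts and neutrophils and nerve sheath cells the smallest. In T-cell-like cells, the members took 30.2% of all UMIs in Lin+ control and 32.8% in Lin+ iAdFASNKO. In the few T-cell-like cells of Lin-, 35 and 79 in number, they took 25.4% and 23.8%. B-cell-like cells had 25.1% and 26.4% (281 and 1057 cells). Natural-killer-like cells, counted only in Lin+ control with 33 cells, had 19.0%. Lymphocytes were thus above every other class of their own library.

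Stromal and myeloid classes were lower. Progenitor-like cells, the fibroblast-like cells that can form adipocytes, had 13.8% in Lin+ control, 12.6% in Lin+ iAdFASNKO, 12.5% in Lin- control and 13.4% in Lin- iAdFASNKO. The endothelial gate had 17.7% and 16.6% in Lin- and 13.5% in the 42 cells of Lin+ iAdFASNKO. Macrophage-like cells had 9.98% and 9.99% in Lin+, with 100 and 39 cells. Smooth-muscle-or-pericyte-like cells had 9.74% and 9.08%, and Schwann-like cells 7.90% and 8.48%, all in Lin-. The 95% counting intervals were narrow against the spread between cells, and the widest, from 25.2% to 25.7%, was that of the 35 T-cell-like cells of Lin- control. In Lin+ control the middle 80% of T-cell-like cells ran from 17.0% to 40.8% and of progenitor-like cells from 7.81% to 19.2%, so single cells of these classes overlapped.

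**Figure D1:**
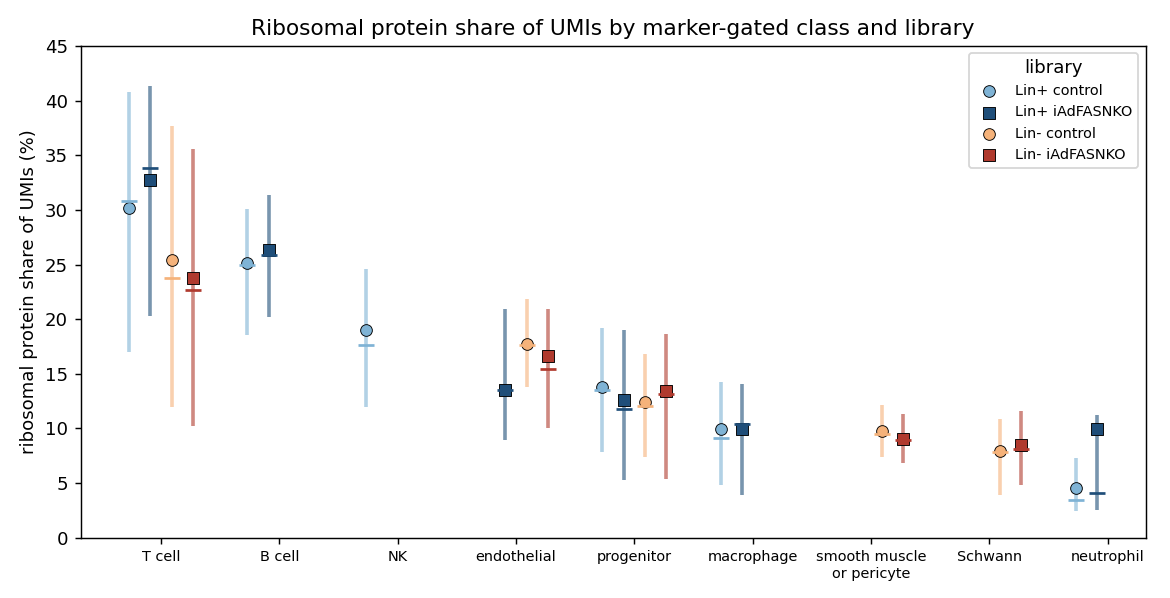
Share of all UMIs on the 80 ribosomal protein genes (percent, vertical axis) in each marker-gated class, by library. Symbols are the share in the summed UMIs, short dashes the median cell and bars the 10th to 90th percentile of cells. T-cell-like and B-cell-like cells sit between 23.8% and 32.8%, and Schwann-like cells at 7.90% and 8.48%. The neutrophil sum in iAdFASNKO lies far above its median cell.

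The order of classes was the same in Lin+ control, Lin- control and Lin- iAdFASNKO under every processing alternative. In Lin+ iAdFASNKO only neutrophil-like and macrophage-like cells changed places, in 4 of 14 settings. The endothelial gate holds blood and lymphatic vessel cells together. In Lin- a Prox1 UMI, a lymphatic marker, was found in 78.3% of its control and 60.8% of its iAdFASNKO cells, and in the iAdFASNKO library its 10 leading genes held 2 lymphatic markers and 1 of its own. Its values are therefore those of the gate. Cells with and without a Prox1 UMI had median shares of 17.3% and 18.8% in control and 14.8% and 16.4% in iAdFASNKO, with median depths of 9249 and 3389, then 4473.5 and 2770 UMIs.

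Within T-cell-like cells the share was higher in cells with transcripts of naive and central memory genes. Lin+ control cells with a UMI of Ccr7, the lymph node chemokine receptor, had a median share of 36.1%, against 26.2% in those without one. In Lin+ iAdFASNKO these medians were 35.9% and 31.2%. For Lef1, a transcription factor of naive T cells, they were 33.7% and 26.5% in control and 35.3% and 28.1% in iAdFASNKO. Cells with a Ccr7 UMI were deeper, with median depths of 3949.5 against 3458 UMIs in control and 4832 against 4006 in iAdFASNKO, and the part of depth was not tested. A Ccr7 UMI was found in 35.2% and 50.4% of the Lin+ T-cell-like cells, and in 2.86% and 8.86% of those in Lin-. A UMI of Trdc, the constant region of the gamma-delta T cell receptor, was found in 45.7% and 29.1% of the Lin- cells, and in 9.09% and 4.11% of those in Lin+. The T-cell-like cells of the fractions thus differed in these markers as well as in ribosomal share.

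The summed ribosomal protein level differed little between genotypes in most classes. Levels are given as CPM, the UMIs of a gene per 1000000 UMIs of the class sum. The ratio of the members' summed CPM, iAdFASNKO over control, was 1.09 in the T-cell-like cells of Lin+, 1.05 in B-cell-like, 1.00 in macrophage-like and 0.918 in progenitor-like cells there. In Lin- the ratio for progenitor-like cells was 1.08, beside 0.935 in T-cell-like, 0.932 in smooth-muscle-or-pericyte-like and 1.07 in Schwann-like cells, and 0.940 in the endothelial gate. The intervals of these ratios excluded 1 except in macrophage-like cells (0.984 to 1.02), which says only that the count is large. The smooth-muscle-or-pericyte-like value turned with the mitochondrial limit, from -0.10 (log2) at 10% to 0.061 at 5% and 0.0088 at 20%, and the median cell of this class had 8.09% and 7.08% mitochondrial UMIs. Progenitor-like and T-cell-like cells went in opposite directions in the 2 fractions. The medians of large and small subunit members were close in each comparison, for example 0.11 and 0.11 (log2) in Lin+ T-cell-like cells and 0.040 and 0.045 in Lin- progenitor-like cells.

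Neutrophil-like cells were the exception, and a handful of cells carried the difference. Their share was 4.51% in control (34 cells) and 9.94% in iAdFASNKO (49 cells), a ratio of 2.20 (2.12 to 2.29). The size rule used throughout calls a gene lower where its CPM in iAdFASNKO is at most 0.8 of that in control, and higher in the reverse case, given at least 100 UMIs over both libraries and an interval that leaves out 1. By it 64 of 67 members were higher and 0 lower. Of all genes measured in this comparison, the members included, 36.5% were higher and 30.8% lower. In control 5 members had 100 or more UMIs, and in iAdFASNKO 64. Most members thus passed the minimum through the library where they were high, and the count of calls gives no support of its own. The median cell, however, had 3.44% in control and 4.10% in iAdFASNKO. The 5 cells with the most UMIs in each library held 41.7% and 70.6% of the class's ribosomal protein UMIs, and without them the shares were 4.02% and 5.10%. The largest ratios were those of Rps20 (331 to 1849 CPM, ratio 5.58), Rps18 (146 to 809 CPM, 5.55) and Rpl32 (252 to 1296 CPM, 5.15). They rest on 25, 11 and 19 UMIs in control. Rps9 (2889 and 3112 CPM), Rpl17 (1020 and 1263) and Rplp2 (928 and 1184) had the smallest and were not called. Whether the deepest cells hold more than 1 cell each was not tested beyond the doublet caller.

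In the other Lin+ classes few members were called. In T-cell-like cells 0 of 77 members were higher and 3 lower, where 5.12% and 13.5% of all genes were called. In B-cell-like cells these counts were 0 and 1 of 77, against 3.03% and 5.88% of all genes. In macrophage-like cells they were 0 and 4 of 77 (10.4% and 15.7% of all genes). In progenitor-like cells 1 of 78 was higher and 4 lower (22.2% and 7.87%). All these shares were below those of all genes.

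Rpl13a, a large subunit protein known also for silencing inflammatory messages, and Rpl35, which lies near the exit of the nascent peptide tunnel, recurred among the lowest. Rpl13a went from 1270 to 1002 CPM in T-cell-like cells (ratio 0.789, interval 0.734 to 0.849), from 1062 to 825 in B-cell-like cells (0.776) and from 474 to 304 in progenitor-like cells of Lin+ (0.641). Rpl35 went from 3045 to 2422 CPM in T-cell-like cells (0.795), from 925 to 628 in macrophage-like cells (0.679) and from 1595 to 1049 in progenitor-like cells (0.658). In progenitor-like cells Rpl9 was also lower, at 1397 and 1043 CPM. Rps27l was the lowest member in T-cell-like cells, from 73 and 214 UMIs (94.2 and 70.6 CPM). As a share within ribosomal protein UMIs, Rpl35 was lower in 9 of 10 genotype comparisons and Rpl13a in 7 of 9 with enough UMIs, Lin- included. Rpl35 shares stretches with another gene, Gm2000, and their joint counts are given below.

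Outside neutrophil-like cells the highest ratios in Lin+ were small. They reached 1.21 for Rps15a, 1.20 for Rpl23 and 1.19 for Rpl12 in T-cell-like cells, 1.24 for Rps27l, 1.19 for Rps2 and 1.19 for Rpl3 in B-cell-like cells, and 1.21 for Rps25 in macrophage-like cells. In macrophage-like cells Rpl35a (1.19) and Rpl7 (1.19) followed, and Rps27l was lowest, at 229 and 111 CPM. In progenitor-like cells Rpl39l was highest (1.32), then Rpl12 (1.10). Of these only Rpl39l passed the size rule.

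In Lin- many more members were called, in both directions. T-cell-like cells had 7 higher and 21 lower of 76 (16.2% and 23.5% of all genes), and progenitor-like cells 12 and 7 of 78 (16.2% and 15.7%). Smooth-muscle-or-pericyte-like cells had 3 and 26 of 77 (6.06% and 16.2%), the endothelial gate 2 and 21 of 77 (9.99% and 14.7%) and Schwann-like cells 17 and 11 of 77 (7.92% and 15.1%). The spread of members around the class's own ribosomal change, as the SD of the log2 ratios, was 0.28 to 0.35 in these 5 comparisons. In the Lin+ comparisons other than neutrophil-like cells it was 0.11 to 0.20. Against all genes, the share of members called lower was larger in smooth-muscle-or-pericyte-like cells, the endothelial gate and, by less, T-cell-like cells. The share called higher was larger in Schwann-like cells. In progenitor-like cells both shares were near or below those of all genes.

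At a fold of 1.5 the members higher and lower were 0 and 0 in Lin+ T-cell-like (2.79% and 7.59% of all genes), 0 and 0 in B-cell-like (1.85% and 2.73%), 0 and 1 in macrophage-like (6.85% and 11%), 62 and 0 in neutrophil-like (32.4% and 24.5%) and 0 and 2 in Lin+ progenitor-like cells (7.71% and 3.39%). In Lin- they were 3 and 8 in T-cell-like (10.2% and 17.1%), 3 and 2 in progenitor-like (6.67% and 5.91%), 0 and 10 in smooth-muscle-or-pericyte-like (1.8% and 7.09%) and 0 and 1 in Schwann-like cells (3.75% and 7.61%), and 0 and 5 in the endothelial gate (4.68% and 6.84%).

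**Figure D2:**
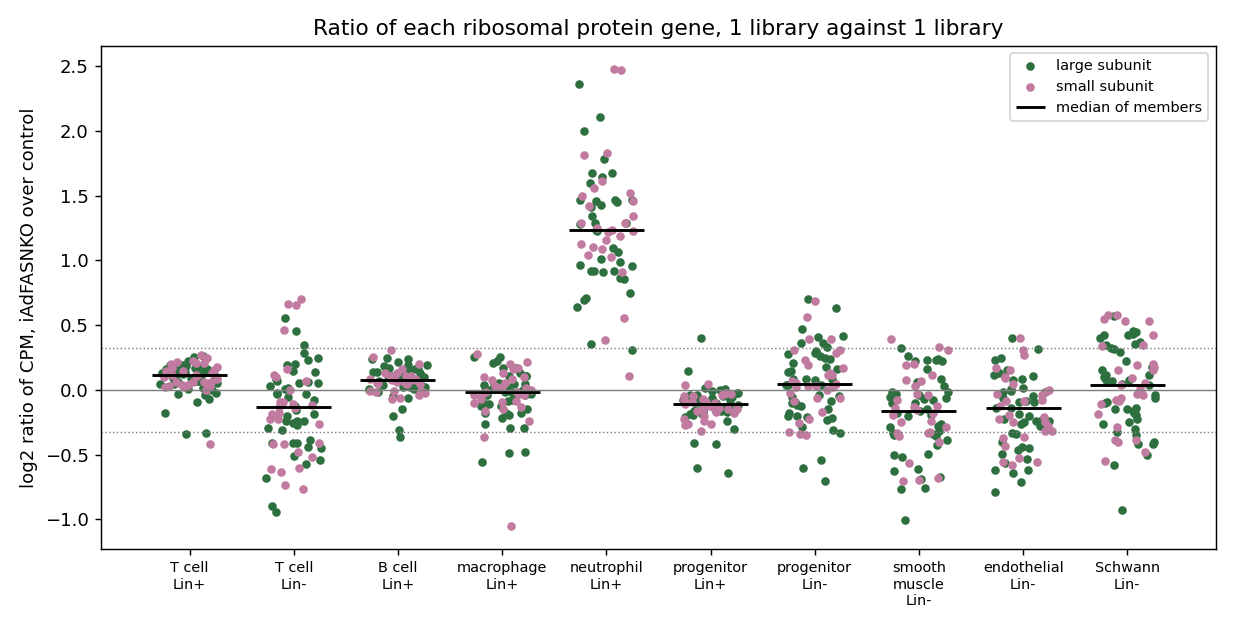
log2 ratio of CPM, iAdFASNKO over control, for each member with at least 100 UMIs, in 10 class and fraction comparisons of 1 library with 1 library. Green points are large and pink points small subunit genes, black lines the median, and dotted lines the fold of the size rule. Lin- comparisons spread wider than Lin+ ones, and the neutrophil-like points all lie above 0.

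The lowest members in Lin- were largely the same genes in each class. Rpl10, a late-joining large subunit protein, went from 1582 to 970 CPM in progenitor-like cells, from 1172 to 585 in smooth-muscle-or-pericyte-like cells, from 1834 to 1172 in the endothelial gate, from 929 to 488 in Schwann-like and from 1946 to 1010 in T-cell-like cells. Rplp0, the base of the stalk that recruits elongation factors, went from 1919 to 1317, from 1093 to 648, from 2067 to 1196 and from 1568 to 1046 CPM in the first 4 of these. Rpl12, which joins Rplp0 at the stalk base, was among the lowest in T-cell-like cells (3214 and 1728 CPM) and in smooth-muscle-or-pericyte-like cells (774 and 456). Also among the 3 lowest were Rps27 in T-cell-like cells (5521 and 3243), Rps18 in Schwann-like cells (568 and 387), and Rpl13a in progenitor-like cells (334 and 220) and the endothelial gate (491 and 300).

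The highest members recurred too. Rps26, a small subunit protein near the exit of the message, went from 1357 to 2182 CPM in progenitor-like cells, from 1040 to 1365 in smooth-muscle-or-pericyte-like cells, from 1457 to 1926 in the endothelial gate and from 2686 to 4259 in T-cell-like cells. Rpl38, known from mouse mutants with skeletal patterning defects, went from 2055 to 3187, from 1658 to 2078 and from 2904 to 3834 CPM in the first 3 of these, and from 1484 to 2200 in Schwann-like cells. Rps27l was among the 3 highest in Schwann-like cells (177 and 264 CPM). Rpl37, among the 3 highest in the endothelial gate (3224 and 4007), was not called. In Lin- progenitor-like cells the highest ratio was that of the rare Rpl39l.

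Members were also set against the ribosomal protein UMIs of the same sum, so that a change of the whole group cancels. Other genes then carry the inverse of that change, so the shares of all genes in brackets are not a like background for the members. On this scale 0 were higher and 3 lower in Lin+ T-cell-like cells (2.56% and 21.3% of all genes), 0 and 2 in B-cell-like (1.76% and 8.48%), 0 and 4 in macrophage-like (10.4% and 15.7%), 8 and 6 in neutrophil-like (5.03% and 68.2%) and 1 and 2 in Lin+ progenitor-like cells (35.7% and 4.58%). The neutrophil-like count thus fell from 64 to 8 once the group's own rise was taken out. In Lin- 10 were higher and 15 lower in T-cell-like (20.3% and 19.4%), 5 and 14 in progenitor-like (9.98% and 23.8%), 10 and 15 in smooth-muscle-or-pericyte-like (11.2% and 10.4%) and 10 and 17 in Schwann-like cells (5.01% and 21.3%), and 6 and 16 in the endothelial gate (14.5% and 9.97%).

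In this scaling, 7 of the 76 members measured in all 5 Lin- classes were lower in every one: Rpl10, Rpl12, Rpl35, Rplp0, Rps18, Rps19 and Rps27. Among those higher in every one were Rpl38 and Rps26. Here 7.23% and 4.68% of all 235 genes measured in the 5 classes were lower or higher throughout, beside the members' 9.21% and 3.95%. The 235 genes include the members, which gave 7 of the 17 lower and 3 of the 11 higher ones. This background is thus not independent of them. As CPM, 6.58% and 1.32% of the members were lower or higher throughout, near or below the 6.38% and 2.98% of all genes. In Lin+ 0 of 67 members and 0 of 234 genes were lower, or higher, in all 5 classes. That count needs a call in the few neutrophil-like cells too. Within ribosomal protein UMIs Rpl35 was lower in 4 of 5 Lin+ classes, and Rpl13a in 3 of 4 with enough UMIs. Counted together with Gm2000, Rpl35 was lower in 3 of 5. Per 1000 ribosomal protein UMIs of progenitor-like cells, Rps19 stood at 13.4 in Lin+ control, 13.8 in Lin+ iAdFASNKO, 12.6 in Lin- control and 9.73 in Lin- iAdFASNKO. Rpl12 stood at 8.56, 10.3, 8.56 and 6.40, and Rps26 at 11.6, 12.3, 10.9 and 16.2 in the same order. For each of these genes Lin- iAdFASNKO had the lowest or highest value of the 4 libraries, although Rpl12 was also higher in Lin+ iAdFASNKO than in the controls. Genotype and library cannot be told apart here.

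**Figure D3:**
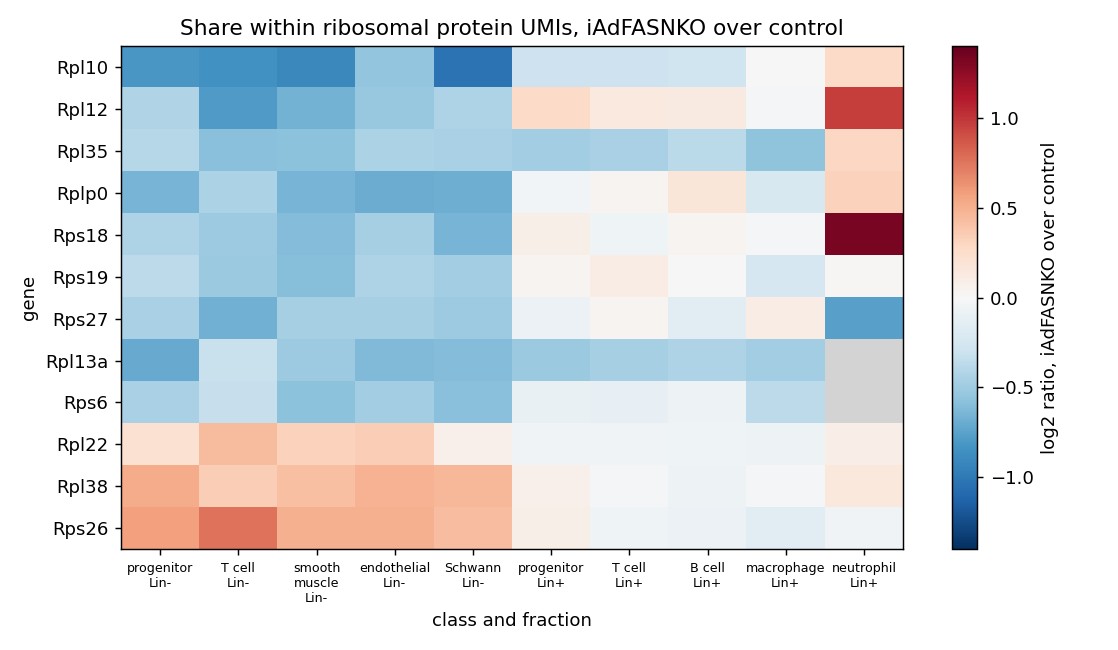
log2 ratio, iAdFASNKO over control, of the share within ribosomal protein UMIs for 12 named members (rows) in 10 class and fraction comparisons (columns). Blue is lower, red higher, and grey marks fewer than 100 UMIs. The 5 Lin- columns on the left show one pattern, with 7 genes lower and Rpl38 and Rps26 higher in all 5, while Rpl35 and Rpl13a are also lower in most Lin+ columns.

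Counts on some genes that share stretches with a member moved with the library. The last 400 bases of the annotated coding transcripts were cut into all stretches of 60 bases, and 90.7% of those of Rpl10 also occur in another gene, the closest being Rpl10-ps3. The other gene is Rps27rt for Rps27 (49.1%) and Wdr89 for Rplp2 (36.3%). Of the UMIs counted on Rpl10 and Rpl10-ps3 together, the second gene held 6.70% in Lin+ control, 18.3% in Lin+ iAdFASNKO, 9.24% in Lin- control and 36.4% in Lin- iAdFASNKO progenitor-like cells. Within a library this share was alike in every class with 100 or more such UMIs. It ran from 6.14% to 10.0%, 17.3% to 19.3%, 6.75% to 10.2% and 35.2% to 39.3%, and the libraries' ranges overlapped only between the controls. For Rps27rt the libraries' medians were 7.23%, 13.1%, 8.53% and 23.4%, and for Wdr89 6.00%, 11.1%, 6.73% and 16.8%, in the same order.

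With both genes counted as one, calls were lost for some pairs and gained for another. The Rpl10 pair was lower in 2 of 5 Lin- classes within ribosomal protein UMIs, with ratios from 0.724 to 0.951, where Rpl10 alone was lower in 5 of 5, from 0.489 to 0.680. The Rps27 pair was lower in 1 of 5 (0.748 to 0.873), and Rps27 alone in 5 of 5 (0.628 to 0.728). The pair of Rpl35 and Gm2000, which shares 82.1% of the stretches, was lower in 5 of 5 (0.696 to 0.786). Rpl12 shares no such stretch with another annotated gene, and its ratios were 0.575 to 0.748. Rplp2 alone was higher in 0 of 5 (1.10 to 1.19) and its pair with Wdr89 in 2 of 5 (1.22 to 1.37). In Lin+ the pair of Rpl35 and Gm2000 was lower in 3 of 5 classes (0.711 to 1.30), and Rpl35 alone in 4 of 5. Gm2000 alone was higher in 3 of 3 Lin+ classes with enough UMIs (1.43 to 1.47). Rpl10, Rps27 and Rplp2 are thus uncertain as single genes, as are Rpl10-ps3, Rps27rt and Wdr89, and, by less, Rpl35 and Gm2000. What set the split between the pairs was not tested. Rps26 shares 64.2% of its stretches with other genes, Rps6 87.7% and Rps27a 90.3%, but with no gene counted here. No joint count could thus be made for these members. Rps18 shares 71.0%, and its pair with Gm11361 was lower in 5 of 5 Lin- classes (0.636 to 0.741). Across members, Spearman's rho between the shared part and the ratio within ribosomal protein UMIs ran from -0.24 in Lin+ T-cell-like cells (77 members) to 0.076 in Lin- T-cell-like cells (76 members) over the 10 comparisons, as a description. In Lin- progenitor-like cells the median log2 ratio within ribosomal protein UMIs was -0.070 for the 33 members with 50% or more of stretches shared and -0.065 for the other 45, and in Schwann-like cells -0.13 for 33 and -0.031 for 44.

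**Figure D4:**
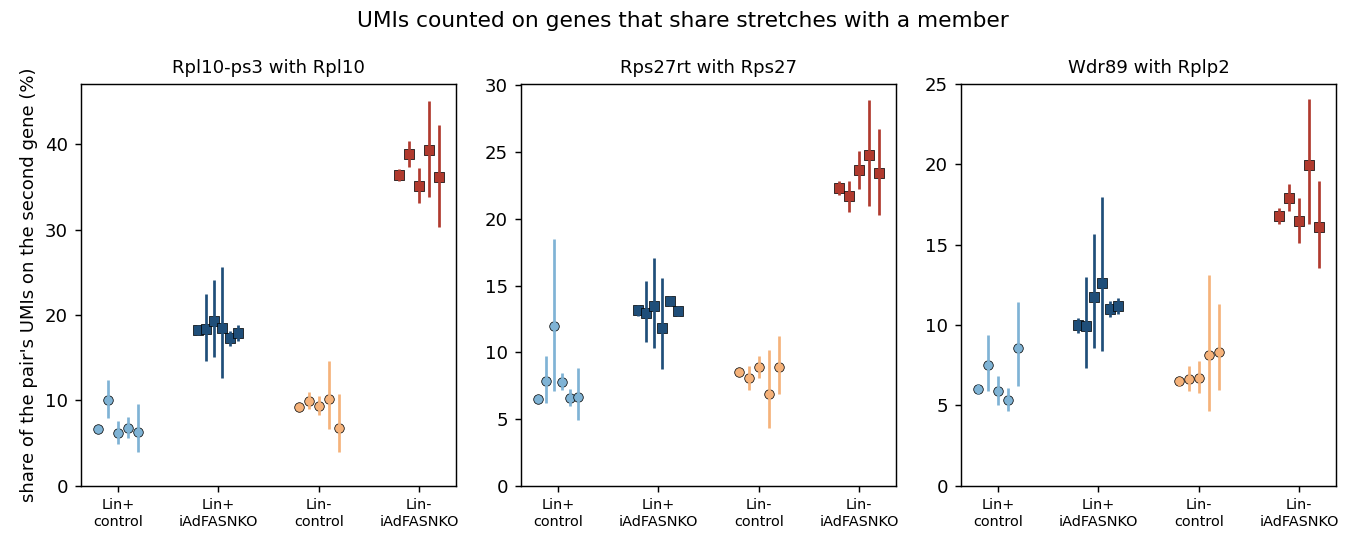
Share of the UMIs counted on the second gene of a pair (percent, vertical axis) for Rpl10-ps3 with Rpl10, Rps27rt with Rps27 and Wdr89 with Rplp2, by library. Each point is 1 class with at least 100 UMIs on the pair, bars are 95% Clopper-Pearson intervals. Most classes of 1 library lie close together, and Lin- iAdFASNKO is highest in all 3 panels. Rps27rt in neutrophil-like cells of Lin+ control stands apart at 12.0%, within the Lin+ iAdFASNKO range of 11.8% to 13.8%.

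Proteins singled out by role spread around the group. The extraribosomal p53 regulators Rpl5 and Rpl11, which bind Mdm2 together with 5S RNA, stood at 5.68 and 4.54 (Rpl5) and 11.1 and 11.4 (Rpl11) per 1000 ribosomal protein UMIs in Lin- control and iAdFASNKO progenitor-like cells. Rps6, the substrate of S6 kinase, stood at 4.72 and 3.44, and its Lin+ values were 5.73 and 5.34. The stalk proteins Rplp1 and Rplp2 stood at 24.1 and 20.8, and at 9.96 and 10.96, with Rplp2 uncertain as a single gene. Rpsa, also known as the laminin receptor, stood at 14.4 and 11.8. Rps27a, made as a fusion with ubiquitin, and Rpl41, the smallest member, had larger shares in Lin- iAdFASNKO, 15.4 and 18.8 and 27.8 and 34.3, and Rpl22, known for a role in T cell development, went from 8.17 to 9.51. In Lin+ progenitor-like cells Rps27a and Rpl41 went the other way, from 13.8 to 12.5 and from 29.9 to 26.3.

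The mix of members also differed between classes. Among 19 class sums with at least 20000 ribosomal protein UMIs, 70 members were ranked by the range over 8 classes of the log2 share within ribosomal protein UMIs, each centred on its library's median. The median range was 0.56, 6 members exceeded 1 and 27 stayed under 0.5. Rps3, a small subunit protein that also acts in DNA repair, ranged most (1.26). It stood at 20.3 and 16.8 per 1000 in the Lin- endothelial gate and 13.3 in Lin+, while progenitor-like cells held 8.21 to 9.39 and macrophages 7.16 and 7.59. Rps29 was highest in macrophage-like cells, at 55.4 and 63.5 per 1000, and lay between 21.5 and 34.0 in every other class sum used. Both macrophage libraries lay well above all other sums.

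T-cell-like and B-cell-like cells differed from progenitors in several members. Rps27 stood at 35.6 and 32.3 per 1000 in B-cell-like cells and at 24.6 and 25.2 in Lin+ T-cell-like cells, against 16.3 and 15.5 in Lin+ progenitor-like cells. Rps19, mutated in Diamond-Blackfan anaemia, stood at 22.6 and 22.7 in B-cell-like and at 13.4 and 13.8 in Lin+ progenitor-like cells. Rpl12 (13.0 and 14.3) and Rpsa (19.6 and 18.3) were highest in Lin+ T-cell-like cells, and the endothelial gate was lowest for Rpsa, at 8.36 to 10.3. Rpl10, with the uncertainty given above, stood at 6.46 and 5.27 in Lin+ T-cell-like cells, and 11.8 and 11.8 in macrophages. Rpl7a stood at 3.50 and 3.62 in B-cell-like cells, with macrophages at 6.09 and 6.66. In natural-killer-like cells of Lin+ control, Rps27 stood at 21.5, Rps19 at 13.3, Rpl12 at 9.52, Rpsa at 17.0, Rpl10 at 10.3 and Rpl7a at 5.11. Rpl22, Rpl36, Rpl27a and Rpl14 ranged least, by 0.20, 0.23, 0.23 and 0.23. Rps9, singled out after its values were seen, stood at 22.5 and 25.1 in macrophage-like cells and at 64.1 and 31.3 in neutrophil-like cells, against 12.5 to 16.8 in all other sums.

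**Figure D5:**
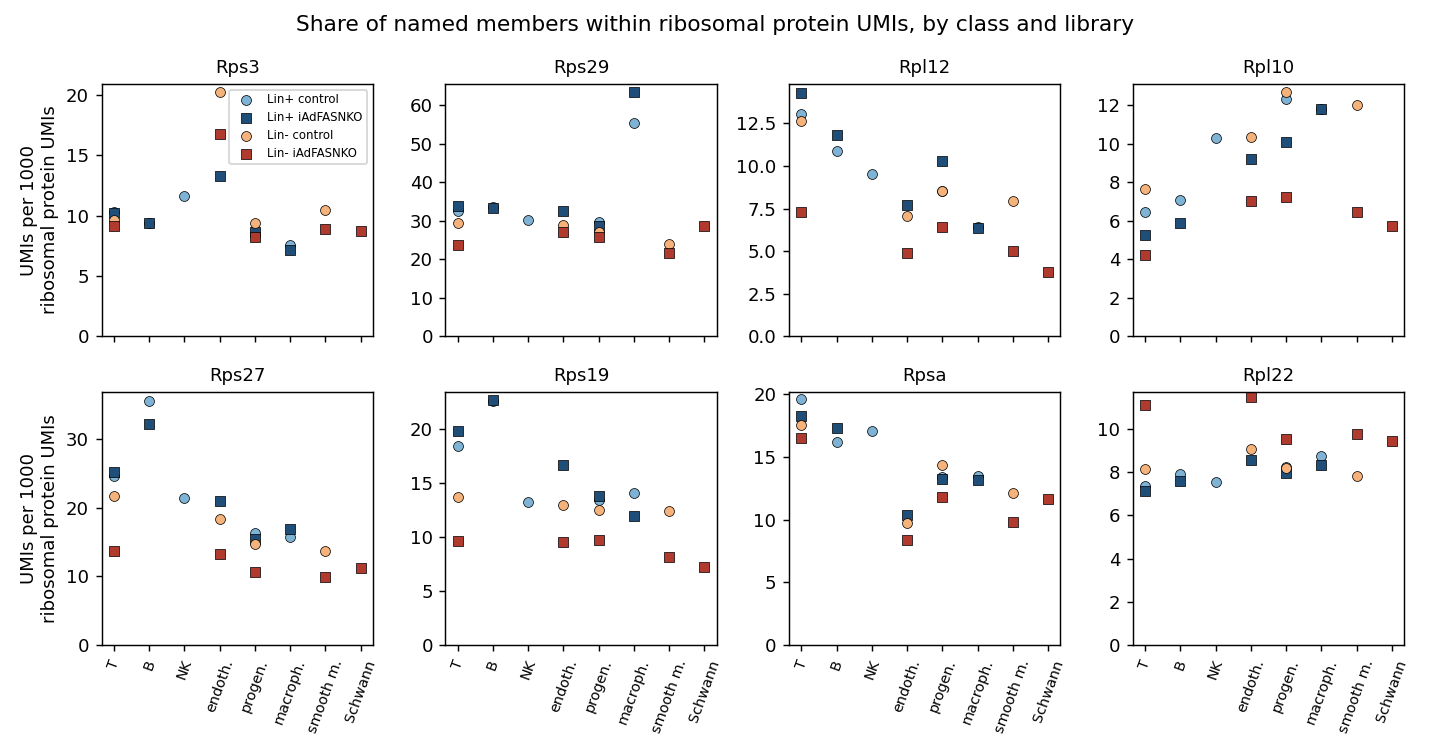
UMIs of 8 members per 1000 ribosomal protein UMIs (vertical axis) in class sums with at least 20000 ribosomal protein UMIs, coloured by library. Rps3 stands out in the endothelial gate, Rps29 in macrophage-like cells and Rps27 and Rps19 in B-cell-like cells, while Rpl22 varies little apart from Lin- iAdFASNKO (red).

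Paralogs with tissue-restricted use were rare. No UMI of Rpl10l, a testis gene, was found in 14698 retained cells, which allows up to 0.0204% of cells with one. Rpl3l, a gene of striated muscle, had 23 UMIs against 90993 for Rpl3. Rpl39l had 884 UMIs in 618 cells against 278645 for Rpl39. Its level was 12.9 and 17.0 CPM in Lin+ and 8.95 and 14.6 CPM in Lin- progenitor-like cells (control, iAdFASNKO) and 6.31 and 10.0 CPM in smooth-muscle-or-pericyte-like cells. In B-cell-like cells it was 1.39 and 0.785 CPM, from 1 and 3 UMIs. In all other class sums it was at most 4.62 CPM, from 0 to 11 UMIs. Rps4x had 199594 UMIs, and Rps4l was not analysed here.

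Rps27l, a p53 target that differs from Rps27 by a few residues, was lower in Lin+ B-cell-like and T-cell-like cells than in stromal cells. It stood at 31.9 and 39.5 CPM in B-cell-like and 94.2 and 70.6 CPM in Lin+ T-cell-like cells, against 230 and 194 CPM in Lin+ progenitor-like and 285 and 309 CPM in smooth-muscle-or-pericyte-like cells. Natural-killer-like cells of Lin+ control were not lower, with 239 CPM from 36 UMIs. Within ribosomal protein UMIs of Lin+ control, the log2 ratio of T-cell-like over progenitor-like cells was -2.42 and moved to -1.58 with a mitochondrial limit of 5% and to -3.90 among cells of 2000 to 6000 UMIs. For B-cell-like cells it was -3.71 and ranged from -4.13 to -3.44. The Lin- T-cell-like cells held 79.2 and 207 CPM, from 9 and 34 UMIs, so the iAdFASNKO value there was near that of progenitors. Rps27 ran the other way between B-cell-like and progenitor-like cells, as described above.

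Progenitor-like cells were more uneven in the iAdFASNKO libraries. The middle 80% of cells had shares from 7.81% to 19.2% in Lin+ control and from 5.24% to 19.0% in Lin+ iAdFASNKO, and from 7.44% to 16.8% and from 5.41% to 18.7% in Lin-. Cells under 8%, a limit set after seeing the values, made up 10.6% and 25.7% in Lin+ and 12.4% and 19.4% in Lin-. Transcripts counted on Gm42418, a gene model that overlaps a ribosomal RNA repeat, moved with this. They took 1.36% and 3.78% of progenitor UMIs in Lin+ and 0.617% and 2.37% in Lin-. In Lin+ iAdFASNKO the median cell under 8% had 7.49% Gm42418 and the other cells 0.851%. Their median depths were 5076 and 7572 UMIs. The part of Gm42418 in the ribosomal share was not tested beyond leaving it out of the total, which gave 13.95% and 13.1% in Lin+ and 12.5% and 13.8% in Lin-.

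Between fractions of 1 genotype, the ratio of ribosomal protein CPM in progenitor-like cells, Lin- over Lin+, was 0.905 in control and 1.06 in iAdFASNKO. In control 0 of 78 members were higher and 12 lower (17% and 19.8% of all genes), and in iAdFASNKO 15 and 12 (16.3% and 31.9%). In T-cell-like cells the ratio was 0.842 and 0.725, with 0 and 29 of 76 members called in control (14.4% and 12.8% of all genes) and 1 and 48 of 77 in iAdFASNKO (16.6% and 7.55%). As given above, the T-cell-like cells of the fractions differed in Ccr7 and Trdc. At the minimum of 3 markers stood 10 of 35 and 24 of 79 cells in Lin-, and 2 of 165 and 0 of 560 in Lin+. Median depths were 3445 and 1614 UMIs in Lin-, and 3567 and 4418.5 in Lin+ (control, iAdFASNKO). The part of these differences in the ratios was not tested.

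Other genes of translation were described from 5 lists. Among 20 elongation and TOP genes, 0 were higher and 8 lower in smooth-muscle-or-pericyte-like cells (6.06% and 16.2% of all genes), 0 and 7 in the endothelial gate (9.99% and 14.7%), and 2 and 3 in Lin- progenitor-like cells (16.2% and 15.7%). Eef1a1, the factor that brings aminoacyl-tRNA to the ribosome, went from 2964 to 1612 CPM, from 4514 to 2902 and from 3502 to 2353 in these. Eif3h, an initiation factor subunit, was lower in smooth-muscle-or-pericyte-like cells (187 and 122 CPM). In Lin- progenitor-like cells Eif4a2 (111 and 150 CPM) and Npm1 (364 and 484 CPM) were higher. The median log2 ratios of the list were -0.22, -0.29 and 0.059, beside -0.077, -0.043 and 0.014 over all genes. In Lin+ progenitor-like cells 1 was higher, Eif4a2 (122 and 190 CPM), and 0 lower (22.2% and 7.87% of all genes).

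Among 9 ribosomal proteins outside the name rule, Fau, the ubiquitin-like fusion that yields a small subunit protein, went from 1753 to 2387 CPM in Lin- progenitor-like cells. In Lin+ progenitor-like cells Fau went the other way, from 1899 to 1640 CPM (ratio 0.864), and was not called. Of the 9, 3 were higher in Lin- progenitor-like cells, Rps27rt most (171 and 413 CPM, uncertain as given above), and 0 lower, beside 16.2% and 15.7% of all genes. The scaffold Rack1 was lower in smooth-muscle-or-pericyte-like cells (558 and 384 CPM). Of 27 ribosome biogenesis genes 6 were higher and 1 lower in Lin- progenitor-like cells (16.2% and 15.7% of all genes), led by Mybbp1a (44.1 and 61.9 CPM) and Nop10 (133 and 180 CPM), with Eif6, which keeps the subunits apart, lower (63.6 and 42.5 CPM). In Lin+ these counts were 3 and 1 of 27, where 22.2% of all genes were higher and 7.87% lower.

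Of 18 genes of mTORC1 and TOP regulation, 5 were higher and 4 lower in Lin- progenitor-like cells (16.2% and 15.7% of all genes), and 4 and 1 of 17 in Lin+ (22.2% and 7.87%). Myc, a driver of ribosome production, stood at 41.0 and 15.1 CPM in Lin- and 30.8 and 17.9 CPM in Lin+, and Sesn3, an mTORC1 inhibitor, at 28.2 and 44.3 and at 35.8 and 51.6 CPM. Ddit4, of the same list, differed between fractions. It was higher in Lin- (13.3 and 18.9 CPM), while in Lin+ it stood at 25.3 and 20.6 CPM and was not called. Of the 78 mitochondrial ribosomal proteins, encoded by a separate gene set, 1 was higher and 11 lower of 77 measured in Lin+ progenitor-like cells (22.2% and 7.87% of all genes), and 8 and 5 of 77 in Lin- (16.2% and 15.7%). In smooth-muscle-or-pericyte-like cells 14 of 73 were higher and 3 lower (6.06% and 16.2% of all genes), led by Mrps22 (11.5 and 19.6 CPM) and Mrpl48 (52.3 and 81.2 CPM), while the cytosolic members there were 3 and 26. The summed cytosolic ratio of this class turned with the mitochondrial limit, as given above. Calls of single genes were not repeated at the other limits.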

How the data were processed

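Values deposited by the authors are unnormalized UMI counts per gene and barcode, integers per the file headers. The submitters' processing notes name Cell Ranger 3.1.0, Seurat 3.0 and mm10, while the headers name software version 3.0.2. Annotation and barcode filters: the sources used here give neither. The other deposited column used is the barcode list, whose tag names the fraction per the labels. The genotype of a matrix was read from its name.

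Barcodes needed 300 genes, 500 UMIs and a mitochondrial share of 10% or less. Scrublet (scanpy 1.11.5, rate 0.06) marked 1.03% to 2.06% of cells per library as doublets, which were removed. A cell entered a class with at least 3 of its markers and 2 more than for any other class, out of 15 marker lists, and 2160 cells stayed unassigned. A further 259 cells in the erythroid gate stayed unnamed. UMIs were summed per class and library with at least 30 cells and given as CPM, their total scaled to 1000000. Ratios carry exact conditional binomial 95% intervals and shares Clopper-Pearson intervals. These and the floor of 3 counts cover counting error only, and molecules of 1 cell are not independent. The functions were tested on simulated data. Python 3.11.15, numpy 2.4.6 and scipy 1.17.1 were used, and transcript sequences for shared stretches come from GENCODE M21.

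The genes named were the 3 highest and 3 lowest members of each comparison, those called alike in all classes of a fraction, the 8 with the largest and 4 with the smallest range over classes, paralogs, members chosen by role, and those with the largest ratios of the other lists. The members and lists were chosen with earlier results of these data known. The minimum of 20000 UMIs and the comparison with similar genes were set after the values were seen. Alternatives covered the mitochondrial limit, gate, doublets, depth, total and shared barcodes. Values of some genes that the naming rule selects are not reported here.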

Additional observations from a re-analysis of the deposited data

Results flagged for a closer look

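The ratio of summed ribosomal protein CPM, iAdFASNKO over control, had opposite signs in the fractions for 2 classes, and neither difference was tested. In progenitor-like cells the log2 ratio was -0.12 in Lin+ and 0.11 in Lin-, a difference of 0.23. In T-cell-like cells it was 0.12 in Lin+ and -0.097 in Lin-, a difference of -0.22. The T-cell-like cells of Lin- were 35 and 79 in number.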

How the results depend on the processing

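Results rest on 1 library per genotype and fraction, and summed values on few cells for neutrophil-like, macrophage-like and Lin- T-cell-like cells, where depth limits single members. No paired analysis was possible because the labels give no replicate numbers and each group has 1 library. All values here are log2 ratios of ribosomal protein CPM, given where they moved by more than the counting interval of the main value. The totals without Gm42418, barcodes shared with any library, the gate without the erythroid list and the removal of the 5 deepest cells were chosen after seeing the data, and the cause of each move was not tested. The genotype ratio of smooth-muscle-or-pericyte-like cells turned under both other mitochondrial limits, and the macrophage-like value lay on either side of 0. Every other ratio kept its sign under the 13 alternatives run. The neutrophil-like ratio of 1.14 shrank to as little as 0.34.

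With a mitochondrial limit of 5%, the genotype ratios in Lin+ were 0.10 in T-cell-like, 0.081 in B-cell-like, 0.045 in macrophage-like, 0.83 in neutrophil-like and -0.14 in progenitor-like cells. In Lin- they were -0.13 in T-cell-like, 0.10 in progenitor-like, 0.061 in smooth-muscle-or-pericyte-like, -0.059 in endothelial and 0.13 in Schwann-like cells. Other ratios were -0.16 for Lin- over Lin+ progenitor-like cells (control), 0.083 for Lin- over Lin+ progenitor-like cells (iAdFASNKO), 0.93 for T-cell-like over progenitor-like cells (control), 1.17 for T-cell-like over progenitor-like cells (iAdFASNKO), 0.86 for B-cell-like over progenitor-like cells (control) and 1.08 for B-cell-like over progenitor-like cells (iAdFASNKO). With a limit of 20%, the genotype ratios in Lin+ were 0.088 in T-cell-like, -0.068 in macrophage-like, 1.07 in neutrophil-like and -0.12 in progenitor-like cells. The Lin- values were -0.067 in T-cell-like, 0.11 in progenitor-like and 0.0088 in smooth-muscle-or-pericyte-like cells. Between classes or fractions they were -0.14 for Lin- over Lin+ progenitor-like cells (control), 1.34 for T-cell-like over progenitor-like cells (iAdFASNKO) and 1.05 for B-cell-like over progenitor-like cells (iAdFASNKO). With a looser gate (2 markers, a lead of 1), the genotype ratios in Lin+ were 0.16 in T-cell-like, 0.74 in neutrophil-like and -0.13 in progenitor-like cells. For Lin- the ratios were -0.14 in T-cell-like, 0.10 in progenitor-like, -0.24 in smooth-muscle-or-pericyte-like, -0.055 in endothelial and 0.069 in Schwann-like cells. The remaining ratios came to -0.14 for Lin- over Lin+ progenitor-like cells (control), 1.07 for T-cell-like over progenitor-like cells (control) and 1.36 for T-cell-like over progenitor-like cells (iAdFASNKO). With a stricter gate (4 markers, a lead of 3), the genotype ratios in Lin+ were 0.11 in T-cell-like, 0.14 in macrophage-like, 0.68 in neutrophil-like and -0.12 in progenitor-like cells. In Lin- they were -0.052 in T-cell-like, -0.12 in smooth-muscle-or-pericyte-like, -0.073 in endothelial and 0.049 in Schwann-like cells. Other ratios were 1.16 for T-cell-like over progenitor-like cells (control), 1.39 for T-cell-like over progenitor-like cells (iAdFASNKO) and 1.07 for B-cell-like over progenitor-like cells (iAdFASNKO). Among cells of 2000 to 6000 UMIs, the genotype ratios in Lin+ were 0.11 in T-cell-like, 0.049 in macrophage-like, 0.40 in neutrophil-like and -0.28 in progenitor-like cells. The Lin- values were -0.069 in T-cell-like, 0.19 in progenitor-like, -0.11 in smooth-muscle-or-pericyte-like and -0.073 in endothelial cells. Between classes or fractions they were -0.27 for Lin- over Lin+ progenitor-like cells (control), 0.20 for Lin- over Lin+ progenitor-like cells (iAdFASNKO), 1.29 for T-cell-like over progenitor-like cells (control), 1.68 for T-cell-like over progenitor-like cells (iAdFASNKO), 0.99 for B-cell-like over progenitor-like cells (control) and 1.34 for B-cell-like over progenitor-like cells (iAdFASNKO). Against UMIs outside ribosomal protein and mitochondrial genes, the genotype ratios in Lin+ were 0.19 in T-cell-like, 0.10 in B-cell-like, 1.246 in neutrophil-like and -0.17 in progenitor-like cells. For Lin- the ratios were -0.15 in T-cell-like, 0.10 in progenitor-like, -0.13 in smooth-muscle-or-pericyte-like and -0.14 in endothelial cells. The remaining ratios came to -0.17 for Lin- over Lin+ progenitor-like cells (control), 0.10 for Lin- over Lin+ progenitor-like cells (iAdFASNKO), 1.502 for T-cell-like over progenitor-like cells (control), 1.86 for T-cell-like over progenitor-like cells (iAdFASNKO), 1.13 for B-cell-like over progenitor-like cells (control) and 1.39 for B-cell-like over progenitor-like cells (iAdFASNKO). As the mean of the cells' own shares, the genotype ratios in Lin+ were 0.13 in T-cell-like, 0.054 in B-cell-like, 0.060 in macrophage-like, 0.41 in neutrophil-like and -0.18 in progenitor-like cells. In Lin- they were 0.063 in progenitor-like, -0.12 in smooth-muscle-or-pericyte-like and -0.19 in endothelial cells. Other ratios were -0.16 for Lin- over Lin+ progenitor-like cells (control), 0.079 for Lin- over Lin+ progenitor-like cells (iAdFASNKO), 1.43 for T-cell-like over progenitor-like cells (iAdFASNKO) and 1.10 for B-cell-like over progenitor-like cells (iAdFASNKO). With called doublets kept, the ratio was -0.15 for Lin- over Lin+ progenitor-like cells (control), 0.086 for Lin- over Lin+ progenitor-like cells (iAdFASNKO), 1.37 for T-cell-like over progenitor-like cells (iAdFASNKO) and 1.06 for B-cell-like over progenitor-like cells (iAdFASNKO). Without barcodes shared within a matrix, the genotype ratios in Lin+ were 0.11 in T-cell-like cells. For Lin- the ratios were 0.12 in progenitor-like and -0.075 in smooth-muscle-or-pericyte-like cells. The remaining ratios came to 0.10 for Lin- over Lin+ progenitor-like cells (iAdFASNKO), 1.16 for T-cell-like over progenitor-like cells (control), 1.39 for T-cell-like over progenitor-like cells (iAdFASNKO), 0.88 for B-cell-like over progenitor-like cells (control) and 1.07 for B-cell-like over progenitor-like cells (iAdFASNKO). Without barcodes shared with any library, the genotype ratios in Lin+ were 0.11 in T-cell-like and -0.13 in progenitor-like cells. In Lin- they were 0.12 in progenitor-like and -0.074 in smooth-muscle-or-pericyte-like cells. Other ratios were -0.15 for Lin- over Lin+ progenitor-like cells (control), 0.10 for Lin- over Lin+ progenitor-like cells (iAdFASNKO), 1.16 for T-cell-like over progenitor-like cells (control), 1.39 for T-cell-like over progenitor-like cells (iAdFASNKO) and 1.07 for B-cell-like over progenitor-like cells (iAdFASNKO). Without Gm42418 in the total, the genotype ratios in Lin+ were 0.028 in macrophage-like and -0.087 in progenitor-like cells. The Lin- values were 0.14 in progenitor-like, -0.087 in smooth-muscle-or-pericyte-like and -0.056 in endothelial cells. Between classes or fractions they were -0.15 for Lin- over Lin+ progenitor-like cells (control), 0.069 for Lin- over Lin+ progenitor-like cells (iAdFASNKO), 1.34 for T-cell-like over progenitor-like cells (iAdFASNKO) and 1.02 for B-cell-like over progenitor-like cells (iAdFASNKO). Without the erythroid list in the gate, the genotype ratios in Lin+ were -0.14 in macrophage-like and -0.14 in progenitor-like cells. For Lin- the ratios were -0.13 in smooth-muscle-or-pericyte-like cells. The remaining ratios came to 0.10 for Lin- over Lin+ progenitor-like cells (iAdFASNKO), 1.09 for T-cell-like over progenitor-like cells (control), 1.35 for T-cell-like over progenitor-like cells (iAdFASNKO) and 0.86 for B-cell-like over progenitor-like cells (control). Without the 5 deepest cells of each class, the genotype ratios in Lin+ were 0.11 in T-cell-like, 0.082 in macrophage-like and 0.34 in neutrophil-like cells. In Lin- they were -0.033 in T-cell-like, 0.11 in progenitor-like, -0.069 in smooth-muscle-or-pericyte-like, -0.11 in endothelial and 0.059 in Schwann-like cells. Other ratios were -0.15 for Lin- over Lin+ progenitor-like cells (control), 1.16 for T-cell-like over progenitor-like cells (control) and 1.39 for T-cell-like over progenitor-like cells (iAdFASNKO).

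With a fold of 1.5 in place of the smaller one, members called higher and lower were 0 and 0 in Lin+ T-cell-like (2.79% and 7.59% of all genes), 0 and 0 in B-cell-like (1.85% and 2.73%), 0 and 1 in macrophage-like (6.85% and 11%), 62 and 0 in neutrophil-like (32.4% and 24.5%) and 0 and 2 in Lin+ progenitor-like cells (7.71% and 3.39%). For Lin- they were 3 and 8 in T-cell-like (10.2% and 17.1%), 3 and 2 in progenitor-like (6.67% and 5.91%), 0 and 10 in smooth-muscle-or-pericyte-like (1.8% and 7.09%) and 0 and 1 in Schwann-like cells (3.75% and 7.61%), and 0 and 5 in the endothelial gate (4.68% and 6.84%).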
